A study of Mus musculus with 2 samples.

Results

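The genes described here encode the 5 enzyme complexes of oxidative phosphorylation and a few proteins that assemble them. They were chosen by symbol alone: names that start with Nduf (complex I), Sdh (complex II), Uqcr (complex III), Cox followed by a digit from 4 to 8 (complex IV) or Atp5 (complex V). The deposited table listed 59 such genes, through 65 probes, among 7976 genes in all. Of the 59 members, 47 were measured on both arrays, 1 on replicate 1 only and 11 on replicate 2 only. Complex I had 25 members, complex II had 5, complex III had 5, complex IV had 12 and complex V had 12. The prefix also took in a gene whose current name is Emc8 (listed as Cox4nb), which encodes a subunit of a membrane protein insertase of the endoplasmic reticulum and no part of complex IV.

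RNA of primary mouse CD11b-positive cells lacking interferon regulatory factor 8 (IRF8 KO, labelled with Cy3) was set against RNA of wt CD11b-positive cells (labelled with Cy5) on each of 2 arrays. CD11b is the integrin alpha M chain, a surface protein of myeloid cells, and IRF8 is a transcription factor that directs myeloid development. Neither genotype had received a treatment. The labels give no tissue, age, strain, IRF8 allele, number of animals or way of selecting the cells. The arrays are described as biological replicates, dyes were not exchanged between them, and so dye and genotype cannot be told apart. The series title asks which genes IRF8 regulates in these cells.

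Complexes I to IV are the respiratory chain of the inner mitochondrial membrane. Complex I (NADH dehydrogenase) and complex II (succinate dehydrogenase) pass electrons to ubiquinone, complex III passes them to cytochrome c, and complex IV (cytochrome c oxidase) passes them to oxygen. The protons pumped on the way drive complex V, the ATP synthase. Most subunits are encoded in the nucleus, and neutrophils are known to hold few mitochondria and to rely largely on glycolysis, whereas macrophages carry more mitochondria. All catalytic subunits of complex IV, and other subunits among complexes I, III and V, are encoded by mitochondrial DNA. They carry other names and are outside the rule.

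Promoters of this family are known for binding sites of NRF1 (nuclear respiratory factor 1), of ETS factors such as GABPA, and of YY1. Of the 59 members, 52 had a promoter window in RefSeq (GRCm38.p6), from 250 bases before to 50 bases after the transcription start. Letters searched on both strands were GCATGCGC for NRF1, CCGGAAG for ETS factors and ATGGCGG for YY1, of which none contains another. The NRF1 letters were found for 9 of 52 members (17.3%), against 6.37% of 3876 genes measured on both arrays that had a window. The ETS letters were found for 14 members (26.9%), against 20.3% of those genes, and the YY1 letters for 8 members (15.4%), against 9.88%. At least 1 of the 3 was present for 25 members (48.1%), against 31.7%. The 52 members include some listed on 1 array only, whereas the comparison genes were all on both arrays. Among members on both arrays, the ETS letters were found for 9 and absent for 31. For the NRF1 letters, and likewise for the YY1 letters, these counts were 7 and 33. IRF8 is known to bind DNA with ETS partners at composite elements. Such a composite, GGAA followed by GAAA after any 2 bases, was found for 0 of 52 members, against 3.22% of the array's genes. The form with 3 bases between was found for 2 members (3.85%), against 3.46%. An interferon response element, GAAA repeated after any 2 bases, was found for 1 member (1.92%), against 3.9%. The ETS letters share their GGAA with the composites, and the composites share GAAA with the interferon element. A match is a description of these letters and not of a bound site.

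The 250 bases before the start are shown for the members at the ends of the range of ratios: Cox6b2, with the highest mean ratio (chr7:4753095-4753344, minus strand), Ndufaf4, with the lowest (chr4:24897833-24898082, plus strand), and Uqcrh, with the lowest among subunits (chr4:116075071-116075320, minus strand). Each runs 5′ to 3′ on the strand of the gene (RefSeq, GRCm38.p6). Capitals mark the NRF1 letters in Ndufaf4, where matches on both strands overlap, and the ETS letters in Uqcrh. Neither of these nor the YY1 letters occurred in the Cox6b2 stretch.
Cox6b2: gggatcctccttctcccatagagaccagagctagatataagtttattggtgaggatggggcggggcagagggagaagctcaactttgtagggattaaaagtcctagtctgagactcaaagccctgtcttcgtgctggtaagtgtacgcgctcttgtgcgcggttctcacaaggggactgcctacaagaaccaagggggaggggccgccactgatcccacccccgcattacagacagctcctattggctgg
Ndufaf4: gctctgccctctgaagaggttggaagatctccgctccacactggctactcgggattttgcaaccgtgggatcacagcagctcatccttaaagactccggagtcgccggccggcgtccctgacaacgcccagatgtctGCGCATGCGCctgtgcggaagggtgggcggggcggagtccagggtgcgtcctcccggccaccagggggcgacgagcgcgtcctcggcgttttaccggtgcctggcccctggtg
Uqcrh: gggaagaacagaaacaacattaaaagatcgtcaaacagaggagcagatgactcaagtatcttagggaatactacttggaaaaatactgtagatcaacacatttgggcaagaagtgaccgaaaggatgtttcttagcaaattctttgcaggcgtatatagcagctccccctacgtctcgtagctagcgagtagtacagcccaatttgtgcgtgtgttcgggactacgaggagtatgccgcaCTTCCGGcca
Members with and without a given motif had nearly the same ratios. After centring each array on the median of all genes, the median log2 ratio of IRF8 KO over wt was 0.05 for 7 members with the NRF1 letters and 0.07 for 33 without. It was 0.05 for 9 members with the ETS letters and 0.07 for 31 without, and 0.04 for 7 members with the YY1 letters and 0.07 for 33 without.

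Each ratio is given on the log2 scale, IRF8 KO over wt, in the deposited normalization, with n = 2 arrays. The median over the 5192 genes measured on both arrays was 0.03 on replicate 1 and -0.42 on replicate 2, so that a member with no shift against other genes stands near those values and not near 0. Raw signals are quoted before normalization, which lowered the log2 ratio of IRF8 KO over wt by 0.026 on replicate 1 and by 0.392 on replicate 2. Median raw signals over listed probes on replicate 1 were 1755 for IRF8 KO and 1652 for wt RNA, and on replicate 2 they were 2584.5 and 2448. Itgam, which encodes CD11b itself, was present in both genotypes, with raw signals of 7883 and 15036 in IRF8 KO RNA on replicates 1 and 2, against 1862 and 3527 in wt RNA. Irf8 itself was not analysed here (0 probes of that name), which leaves the knockout unchecked at its own transcript.

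None of the respiratory chain members differed between IRF8 KO and wt cells by the test. Of 47 members on both arrays, 0 passed limma's moderated test at an adjusted p under 0.05, against 6.22% of all 5192 genes (2.81% higher and 3.41% lower). At an unadjusted p under 0.05 there was 1 member, Ndufaf4, and 839 of all genes. With arrays centred on the median of all genes 0 members passed, against 3.7% of all genes (2.89% higher and 0.809% lower). With loess normalization 1 member passed, Cox6b2, in the higher direction, against 7.34% of all genes higher and 5.34% lower. The median member stood at 0.00 on replicate 1 and -0.25 on replicate 2, which is -0.03 and 0.17 from the median of all genes on the same array. The arrays thus placed the family on opposite sides of that median, each by little. For the mean of the arrays the median member lay 0.07 above all genes. The test gave every gene the same standard error of 0.40, and a 95% interval for a member's mean ratio reached 0.78 to each side, a factor of 1.72, before adjustment. The smallest mean that passed the adjusted test was 1.18, a 2.26-fold difference, so that smaller differences could not be called for a single member.

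The ratios of the members lay in a narrow band, which was described and not tested. With both arrays centred, 45 of 47 members lay within 1.5-fold of the median of all genes, whereas 22.1% of all genes lay at 1.5-fold or beyond. All 47 stayed within 2-fold of the array median on both arrays, while 17.3% of all genes were 2-fold or more away on 1 array or both. Members were brighter than most genes, with a median signal of 5460 against 2607. Among the 1517 genes within the interquartile range of the members' brightness, 19.6% were 2-fold or more away. The middle 50% of the members spanned 0.43 log2 units, against 0.64 for genes of that brightness and 0.58 for all genes. The middle 50% of related mitochondrial groups spanned less: that of mitochondrial ribosomal proteins spanned 0.30, with 93.1% of 29 genes within 1.5-fold, and that of electron carriers and assembly factors outside the rule spanned 0.32, with 93.3% of 15 genes. On the deposited scale 0 members were 2-fold or more in the same direction on both arrays, against 4.91% of all genes.

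**Figure D1:**
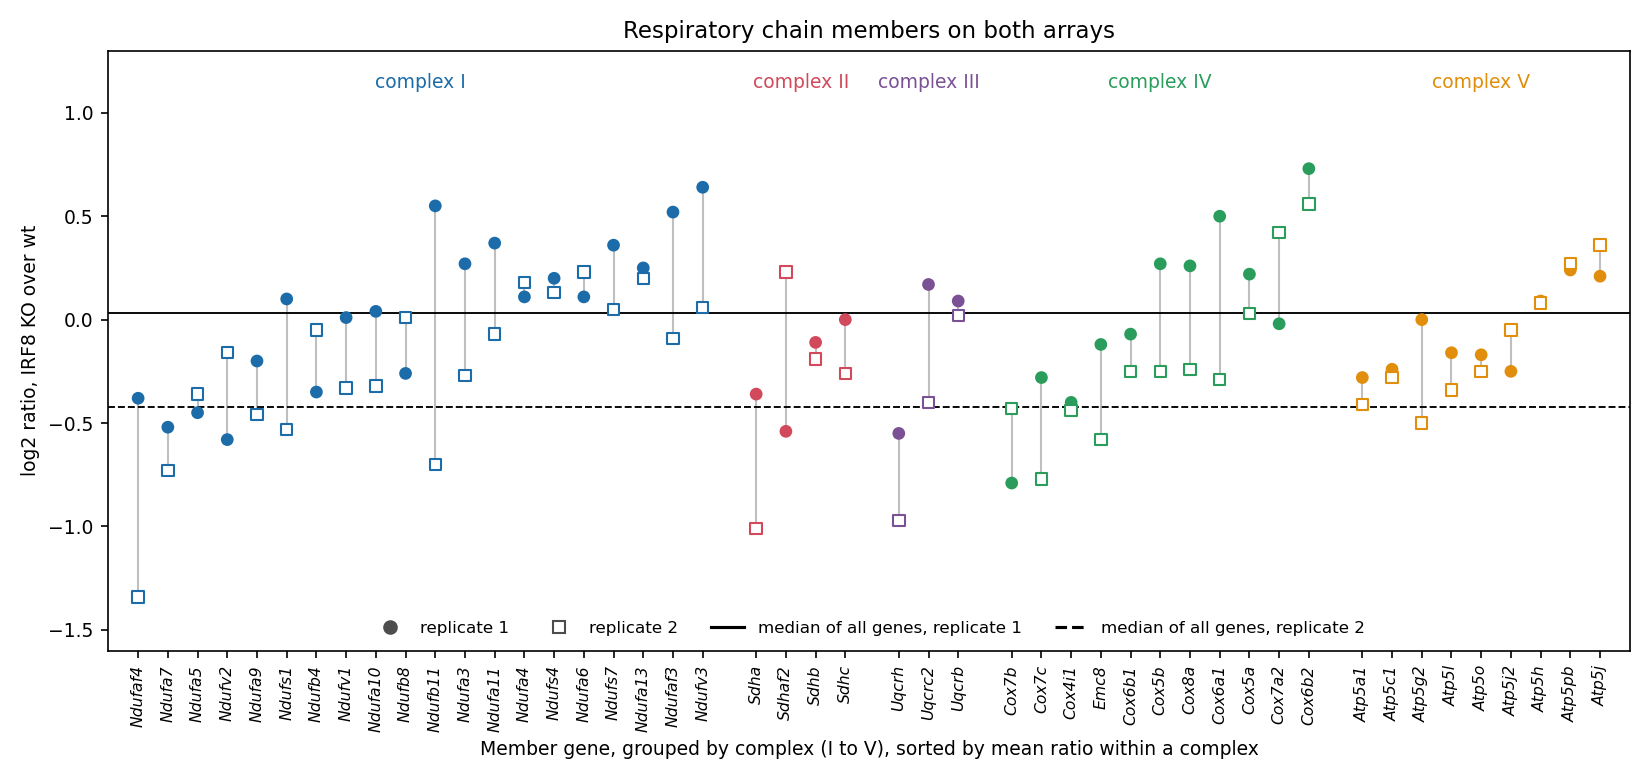
Log2 ratio of IRF8 KO over wt (vertical axis) for the 47 members measured on both arrays, grouped by complex. Filled circles are replicate 1, open squares replicate 2, and the solid and dashed lines mark the medians of all genes, 0.03 and -0.42. Most members lie close to the line of their own array, and Cox6b2 is the member with the highest mean and Ndufaf4 the one with the lowest.

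**Figure D2:**
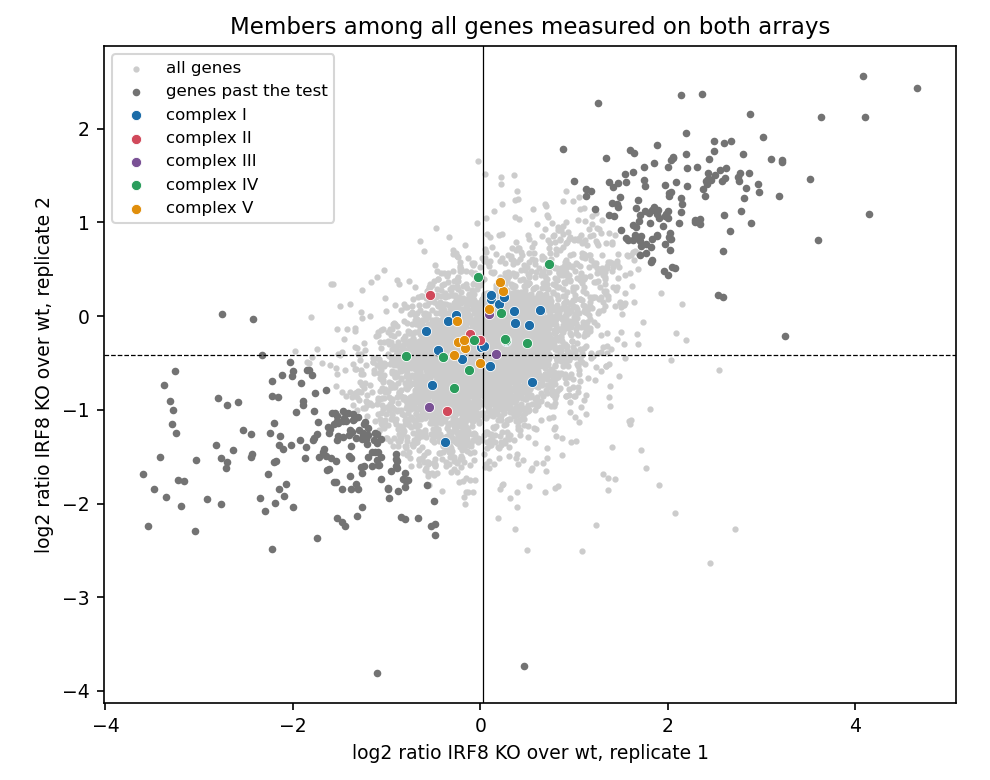
Log2 ratio of IRF8 KO over wt on replicate 1 (horizontal axis) and replicate 2 (vertical axis) for 5192 genes in grey, with the 323 genes past the test in darker grey and members coloured by complex. The thin lines mark the medians of all genes, and no member lies among the genes past the test.

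Across the 47 members the ratios of replicate 1 and replicate 2 had a Pearson correlation of 0.45 and a Spearman correlation of 0.447, against 0.536 and 0.416 across all genes. Genes of a single pair of arrays share dye, scan and RNA and are not independent replicates. With centred arrays, 20 members lay above the median of all genes on both arrays and 10 lay below it on both. Over all genes this was 31.1% in each direction. On opposite sides lay 17 of the 47 members and 1956 of all 5192 genes.

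Complex I oxidises NADH, and its 20 members on both arrays ran from -0.86 to 0.35. Their median stood at 0.10 on replicate 1 and -0.12 on replicate 2, which is 0.08 and 0.30 above all genes. Relative to all genes on each array, 10 of the 20 lay above on both arrays, 3 below on both and 7 on opposite sides. Over all 5192 genes, 31.1% lay above on both arrays, 31.1% below on both and 1956 genes on opposite sides. The 4 core subunits, which carry the flavin and iron-sulfur centres, stayed near the median of all genes, from which their own median differed by 0.03 and 0.18 on replicates 1 and 2. For the 13 accessory subunits the same differences were 0.08 and 0.35.

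Among the core subunits, Ndufs1 stood at 0.10 and -0.53 on replicates 1 and 2, Ndufv1, which binds NADH, at 0.01 and -0.33, and its partner Ndufv2 at -0.58 and -0.16. Ndufs7, the subunit next to the ubiquinone site, stood at 0.36 and 0.05. Ndufs7 thus lay above the median of all genes on both arrays, and the other subunits lay on opposite sides of it on the arrays. Ndufs8, another iron-sulfur subunit, was listed on replicate 2 only, at -0.62, the lowest ratio of the 11 members listed there alone.

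Of the accessory subunits, Ndufv3 had the highest mean of complex I (0.35 ± 0.41, SD; adjusted p = 0.782 in limma), from 0.64 and 0.06. Its raw signals were 9106 and 15725 in IRF8 KO RNA on replicates 1 and 2, against 5728 and 11461 in wt RNA. Ndufa7 stood lowest of the subunits of complex I, at -0.52 and -0.73. Ndufa13, also known as GRIM-19 and needed for assembly of the complex, gave 0.25 and 0.20, and Ndufs4, whose loss causes Leigh-like disease in mice, gave 0.20 and 0.13. The Ndufs4 values came from 2 probes, at 0.25 and 0.15 on replicate 1 and at 0.11 and 0.14 on replicate 2, and another Ndufs4 probe, on replicate 2 alone, stood at -0.12. Ndufb11, an X-linked subunit, gave 0.55 and -0.70, which was the widest gap between the arrays among the members on the deposited scale. With each array set to its own median of all genes the widest gap was that of Sdhaf2 (-0.57 and 0.65). The other 8 accessory subunits on both arrays (Ndufa3, Ndufa5, Ndufa6, Ndufa9, Ndufa10, Ndufa11, Ndufb4 and Ndufb8) had means from -0.40 for Ndufa5 to 0.17 for Ndufa6. On replicate 2 alone, Ndufb5 stood at -0.39, Ndufc1 at -0.03 and Ndufs5 at 0.26. Ndufa4, which keeps a complex I symbol but is now known as a subunit of complex IV, gave 0.11 and 0.18.

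The assembly factors of complex I held the lowest member. Ndufaf4 (probe on chromosome 4, 24829117 to 24829187, mouse build 37) had raw signals of 1027 and 2752 in IRF8 KO RNA on replicates 1 and 2, against 1313 and 5294 in wt RNA. Signals were lower in IRF8 KO RNA on both arrays, mostly on replicate 2. Its log2 ratios were -0.38 and -1.34, with a mean of -0.86 ± 0.68 (SD), a 1.81-fold difference that did not pass (adjusted p = 0.24 in limma). Ndufaf3, which works in the same assembly step, lay at 0.52 and -0.09, and Ndufaf1 was listed on replicate 2 only, at -0.25.

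Complex II oxidises succinate and belongs to the citric acid cycle as well. Sdha, the flavoprotein that binds succinate (chromosome 13, 74460263 to 74460333), had raw signals of 9116 and 15555 in IRF8 KO RNA on replicates 1 and 2, against 11465 and 23934 in wt RNA. Both arrays gave the lower signal to IRF8 KO cells. The ratios were -0.36 and -1.01, with a mean of -0.69 ± 0.46 (SD; adjusted p = 0.419 in limma). The other members did not share this size: the iron-sulfur subunit Sdhb stood at -0.11 and -0.19, and the membrane anchor Sdhc, which had the highest mean of complex II, at 0.00 and -0.26. Sdhc lay just below 0 as deposited (mean -0.13) and just above the median of all genes once arrays were centred (0.07). The anchor Sdhd was listed on replicate 2 only, at 0.03. Sdhaf2, which helps to attach the flavin to Sdha, gave -0.54 and 0.23 at a raw signal of at most 1351.

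Complex III had 3 members on both arrays. Uqcrh, the hinge protein at the cytochrome c1 site (chromosome 4, 115747548 to 115747618), had raw signals of 2342 and 6212 in IRF8 KO RNA on replicates 1 and 2, against 3364 and 9301 in wt RNA. These signals were lower in IRF8 KO RNA on both arrays and gave the ratios -0.55 and -0.97. Its mean of -0.76 ± 0.30 (SD) was the lowest of all structural subunits and did not pass (adjusted p = 0.328 in limma; 95% interval -1.54 to 0.02). Uqcrb, a small subunit near the ubiquinone site whose probe matched 2 genes, gave 0.09 and 0.02. Uqcrc2, a core protein, gave 0.17 and -0.40. Uqcrc1 and Uqcr10, listed on replicate 2 only, stood at 0.22 and 0.07.

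Complex IV held both directions. The 11 members on both arrays ran from -0.61 to 0.65, and their median differed from that of all genes by -0.05 on replicate 1 and 0.17 on replicate 2. Without Emc8, which gave -0.12 and -0.58, these differences were 0.07 and 0.18.

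Cox6b2, the form of subunit 6b known from testis (chromosome 7, 4703405 to 4703475), had the highest mean of all members. Its raw signals were 3167 and 5127 in IRF8 KO RNA on replicates 1 and 2, against 1872 and 2645 in wt RNA. The signal was higher in IRF8 KO RNA on both arrays, with ratios of 0.73 and 0.56. The mean of 0.65 ± 0.12 (SD), a 1.57-fold difference, did not pass (adjusted p = 0.456 in limma), nor did it with centred arrays (adjusted p = 0.14). It passed with loess normalization (adjusted p = 0.0431, mean 0.83), where 12.7% of all genes passed and Cox6b2 was the only member to do so. Cox6b1, the widely expressed form of the same subunit, stood at -0.07 and -0.25, over 2 probes that differed by at most 0.20. The Cox6b2 ratio exceeded the Cox6b1 ratio by 0.80 and 0.82 log2 units on replicates 1 and 2.

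The other subunits of complex IV lay on either side of the median of all genes. Cox7b, a small X-linked subunit (chromosome X, 103217151 to 103217221), had raw signals of 7273 and 15294 in IRF8 KO RNA, against 12368 and 15733 in wt RNA. Its ratios of -0.79 and -0.43 gave the lowest mean of complex IV (-0.61 ± 0.25, SD; adjusted p = 0.495 in limma), but on replicate 2 it lay at the median of all genes. Cox4i1, the main form of the regulatory subunit 4, gave -0.40 and -0.44, and Cox7c gave -0.28 and -0.77. Cox5a gave 0.22 and 0.03, and Cox7a2 gave -0.02 and 0.42. Cox5b, Cox6a1 and Cox8a each stood above 0 on replicate 1 (0.27, 0.50 and 0.26) and below 0 on replicate 2 (-0.25, -0.29 and -0.24), which leaves them above the median of all genes on both arrays. A second Cox5b probe on replicate 2 alone gave 0.39, 0.63 above the first. Cox7a2l, a factor that joins complexes III and IV, was the only member listed on replicate 1 alone, at -0.60.

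Complex V makes ATP, and its 9 members on both arrays kept within a narrow range of means, from -0.35 to 0.29. Their median was -0.16 on replicate 1 and -0.25 on replicate 2, a difference from all genes of -0.18 and 0.17. In the catalytic F1 head and the central stalk, Atp5a1 (subunit alpha) gave -0.28 and -0.41, the lowest mean of complex V (-0.35 ± 0.09, SD; adjusted p = 0.789 in limma), and Atp5c1 (subunit gamma) gave -0.24 and -0.28. Of the c ring and the other membrane subunits, Atp5g2 gave 0.00 and -0.50 with a probe that matched 4 genes, Atp5l (subunit g) -0.16 and -0.34, and Atp5j2 (subunit f) -0.25 and -0.05.

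Of the 4 peripheral stalk subunits, 3 stood above these. Atp5j (coupling factor 6) gave 0.21 and 0.36, the highest mean of complex V (0.29 ± 0.11, SD; adjusted p = 0.834 in limma), Atp5pb (subunit b) 0.24 and 0.27, and Atp5h (subunit d) 0.09 and 0.08. Atp5j had raw signals of 9585 and 12110 in IRF8 KO RNA, against 8133 and 7175 in wt RNA. Atp5o, which ties the stalk to the F1 head, did not share the position (-0.17 and -0.25). Relative to all genes, the stalk's median was 0.13 and 0.60 on replicates 1 and 2, the F1 part's -0.29 and 0.08, and the membrane part's -0.18 and 0.09. This grouping was made after the values were known and has no test. On replicate 2 alone, Atp5e (subunit epsilon) stood at -0.08, Atp5g3 (a c ring subunit) at -0.27 and Atp5k (subunit e) at 0.57. Atp5k had the highest ratio of the 11 members listed there alone.

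**Figure D3:**
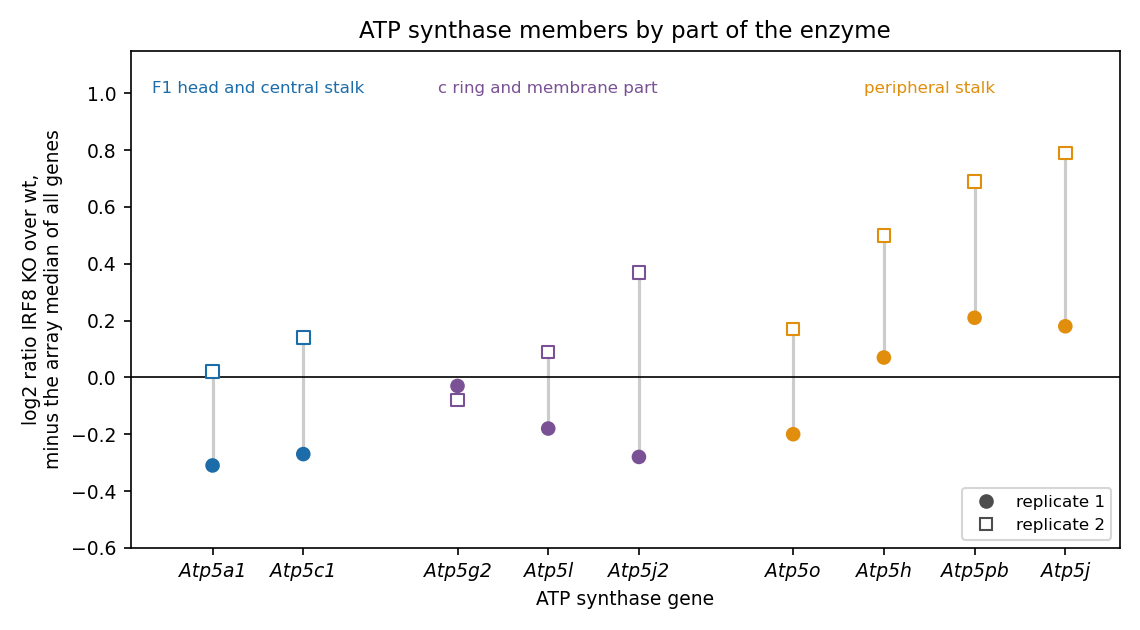
Log2 ratio of IRF8 KO over wt minus the array median of all genes (vertical axis) for the 9 ATP synthase genes on both arrays, by part of the enzyme. Filled circles are replicate 1 and open squares replicate 2. Atp5h, Atp5pb and Atp5j lie above 0 on both arrays, and the F1 genes lie below 0 on replicate 1 and just above it on replicate 2.

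Other genes of the same pathway gave few calls. Of 15 electron carriers and assembly factors outside the rule that were on both arrays (48 listed), 0 passed limma and 0 had an unadjusted p under 0.05. Cyc1, cytochrome c1 of complex III, stood at 0.06 and -0.52. The lowest mean of that list was that of Coq2, an enzyme of ubiquinone synthesis (-0.36 and -1.07, adjusted p = 0.383 in limma), and the highest was that of Etfb, a chain of the electron transfer flavoprotein (0.37 and 0.43, adjusted p = 0.733).

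Of 9 genes of the citric acid cycle and pyruvate dehydrogenase (21 listed), 0 passed and 3 had an unadjusted p under 0.05 in limma. Over all 5192 genes, 839 had such a p. Mpc2, a chain of the mitochondrial pyruvate carrier, was highest at 1.21 and 0.86 (adjusted p = 0.111, and 0.00175 with loess), and Fh1, fumarase, lowest at -0.68 and -1.10 (adjusted p = 0.213). Of 6 genes of mitochondrial DNA upkeep and transcription (20 listed), 0 passed and 1 had an unadjusted p under 0.05: this was Polrmt, the mitochondrial RNA polymerase, which stood lowest at -0.20 and -1.43 (adjusted p = 0.282). Mterf4, which acts on mitochondrial ribosomes, stood highest at 0.71 and 0.17. Of 4 genes of mitochondrial chaperones and cristae (22 listed), 0 passed and 1 had an unadjusted p under 0.05. These 4 ran from Phb, prohibitin, at -0.57 and -1.04 (adjusted p = 0.287) to Yme1l1, a protease of the inner membrane, at 0.10 and -0.08.

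In the list of import and outer membrane genes 1 of 10 (26 listed) passed, in the lower direction, against 3.41% of all 5192 genes. Slc25a4, the ADP/ATP carrier that exports the ATP made by complex V (chromosome 8, 47292531 to 47292601), had raw signals of 914 and 3920 in IRF8 KO RNA on replicates 1 and 2, against 2572 and 7254 in wt RNA. It was lower in IRF8 KO RNA on both arrays and fell by 1.40 ± 0.17 on the log2 scale, a 2.64-fold difference (adjusted p = 0.0115 in limma). It kept the call with loess (mean -1.16, adjusted p = 0.00528) and lost it with centred arrays (mean -1.20, adjusted p = 0.0735). Slc25a5, the other common ADP/ATP carrier, stood at -0.65 and -0.68 (adjusted p = 0.44).

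Against other gene groups, the 5 complexes lay close to all genes. Their medians minus that of all genes were 0.11 for complex I, 0.05 for complex II, 0.09 for complex III, 0.22 for complex IV and -0.01 for complex V, in the mean of the arrays. Complexes I and III lay on the same side of all genes on both arrays, as did complex IV once Emc8 was left out. By the same measure, mitochondrial ribosomal proteins (29 genes) stood at -0.12 and cytosolic ribosomal proteins (61 genes) at -0.71. Of the cytosolic group, 11 were called lower and 0 higher (0 lower with centred arrays and 24 lower with loess). The share of all 5192 genes called lower was 3.41% (0.809% with centred arrays and 5.34% with loess). Glycolysis (11 genes of 21 listed) stood at 0.83 with 0 genes called. At an unadjusted p under 0.05 in limma were 4 of its genes, against 839 of all 5192 genes. Of these 4, Gpi1, Hk2 and Pgk1 were higher and Pdk1 was lower in IRF8 KO RNA. With centred arrays 0 glycolysis genes were called, and with loess 7 were called higher and 0 lower (Aldoa, Eno1, Gpi1, Hk2, Pfkfb4, Pgk1 and Tpi1). With loess 7.34% of all 5192 genes were called higher. The list ran from Pdk1, which restrains pyruvate dehydrogenase, at -0.98 (adjusted p = 0.143 in limma) to Gpi1, glucose phosphate isomerase, at 0.97 (adjusted p = 0.152, and 0.00345 with loess). Gpi1 stood at 1.62 on replicate 1 and 0.32 on replicate 2, and Pdk1 at -0.66 and -1.30. The value of Gpi1 came from probe data that matched several genes and is uncertain. These groups are described by their medians and were not tested against each other.

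**Figure D4:**
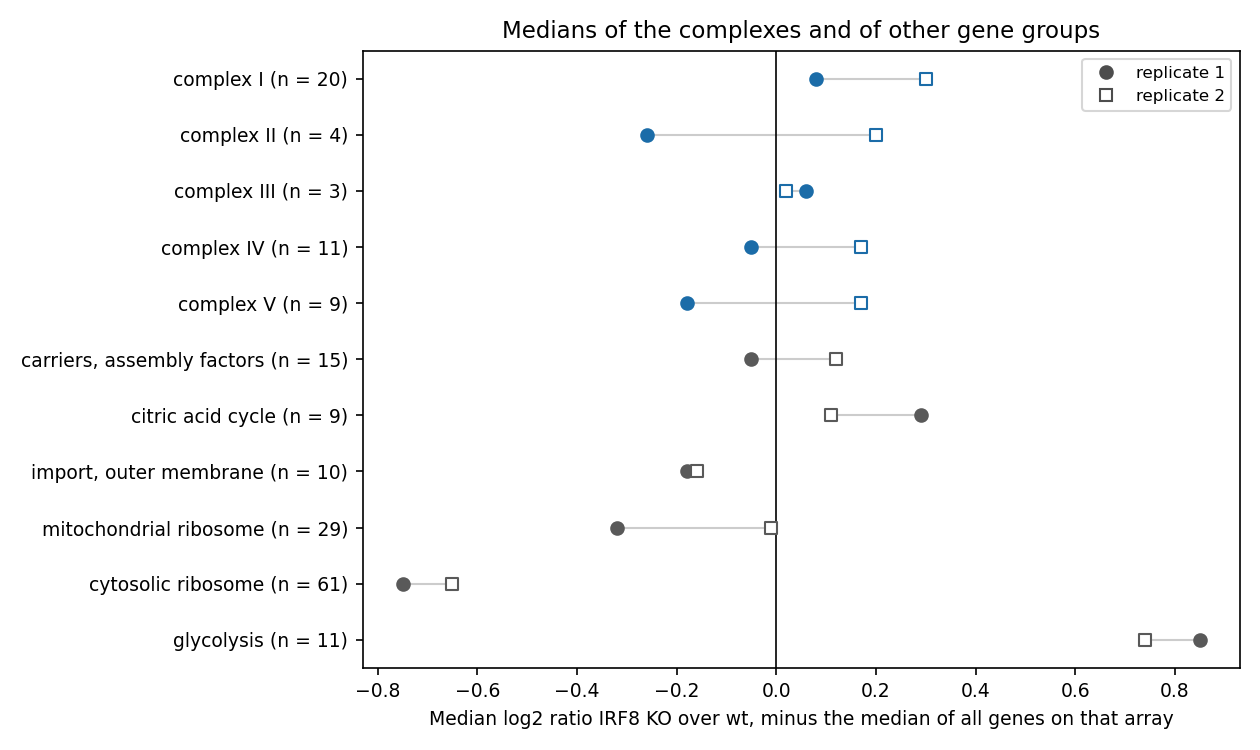
Median log2 ratio of IRF8 KO over wt minus the median of all genes on the same array (horizontal axis) for each complex and for other gene groups, with the number of genes on both arrays. Filled circles are replicate 1 and open squares replicate 2. The complexes lie between -0.26 and 0.30, cytosolic ribosomal proteins at -0.75 and -0.65, and glycolysis at 0.85 and 0.74.

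Markers of cell types moved on the same arrays. Of 6 neutrophil markers on both arrays (of 10), 3 were called higher and 0 lower, and their summed raw signal was 333330 and 419197 in IRF8 KO RNA on replicates 1 and 2, against 140837 and 254058 in wt RNA. Of 5 monocyte and macrophage markers (of 8), 4 were called lower and 0 higher, with sums of 32916 and 49757 in IRF8 KO RNA, against 185534 and 90220 in wt RNA. Both of 2 dendritic cell markers (of 6) were called lower, with sums of 2074 and 5088 in IRF8 KO RNA, against 6709 and 8718 in wt RNA. Of 5 B cell markers (of 6) 0 were called, with sums of 73892 and 110747 in IRF8 KO RNA, against 72515 and 176654 in wt RNA. Of 2 erythroid markers (of 6) 0 were called, with sums of 25294 and 6774 in IRF8 KO RNA, against 45041 and 12117 in wt RNA. Of 6 T cell markers 0 were on both arrays. Of 7 markers of CD11b-positive myeloid cells, all on both arrays, 1 was called higher and 0 lower. The shares of all 5192 genes called were 2.81% higher and 3.41% lower. They were 2.89% and 0.809% with centred arrays, and 7.34% and 5.34% with loess. With centred arrays 2 neutrophil markers were called higher, 2 monocyte and macrophage markers lower and 0 dendritic cell markers. With loess 3 markers of CD11b-positive myeloid cells were called higher and 1 erythroid marker lower, and the neutrophil, monocyte and macrophage, and dendritic counts were those of the deposited scale. The part of this cell make-up in the members' ratios was not tested. In such bulk RNA, fewer cells of a type and less RNA per cell cannot be told apart.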

How the data were processed

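Two-colour arrays of CD11b-positive mouse cells were read from a table of 9143 probes. Its log2 ratios of Cy5 (wt) over Cy3 (IRF8 KO) were normalized per array by the median in the mAdb database, per the file headers. The deposited intensity values are raw signals, mean spot intensity minus median background, per the file headers. The spot filter required 100 or more signal units and no less signal than background in both channels, per the file headers. This can remove transcripts hardly present in 1 genotype. The other deposited file repeats these ratios with replicates 1 and 2 exchanged; array names were followed, and means and tests do not depend on it.

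Signs were reversed to give IRF8 KO over wt. Probes of a gene were averaged over the 5678 probes on both arrays (5192 genes). Current symbols came from RefSeq through Entrez IDs (8370 of 8459 found), and 2 member symbols changed, to Emc8 and Atp5pb. Values from 8 member probes that matched several genes are uncertain. Mean ratios were compared with 0 by limma's two-sided moderated test (version 3.58.1, R 4.3.3), with Benjamini-Hochberg adjustment over all genes and a threshold of 0.05. The prior degrees of freedom were infinite, so means 1.18 or further from 0 passed. With arrays centred on the median of all genes they were 5.89. For a single gene, 2 arrays allow an exact sign-flip p of 0.5 at the lowest. Members, gene lists and the rule for named genes (members at the ends of each complex, genes past the test, and the ends of each list) were chosen with earlier results of these data known. Samples described as biological replicates are not tied to animals. On the deposited scale, p-values rest on a spread between these arrays pooled over all genes. A gene's own SD did not enter its p-value there. The pooled spread includes the offset between the arrays, and with centred arrays the median standard error was 0.27. The number of arrays limits the precision.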

Additional observations from a re-analysis of the deposited data

How the results depend on the processing

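With 2 arrays, dyes not exchanged and a standard error shared by all genes, only mean differences of 2.26-fold or more passed the adjusted test, and the scale of replicate 2 is uncertain by its offset of -0.42. The count of members called lower was 0 under every alternative run (arrays centred, loess, an eBayes trend on brightness, probes near the scanner's ceiling or dim spots left out, probes of several genes left out, the brightest probe of a gene). The count called higher was 0 in all of these except loess, where it was 1, Cox6b2 (adjusted p = 0.0431 in limma). Its adjusted p was 0.14 with centred arrays, 0.456 as deposited and 0.572, the highest, with the trend on brightness. At an unadjusted p under 0.05 there were 2 members with centred arrays and 3 with loess, among 946 and 1203 genes. Over all genes 323 were called as deposited, 192 with centred arrays (150 higher) and 658 with loess (381 higher). The members' median minus that of all genes was 0.07 to 0.09 across scalings and filters, and 0.17 without replicate 1 and -0.03 without replicate 2, so that its direction rests on the choice of array. Among the genes named by rule, the sign of the mean of Sdhc turned from -0.13 to 0.07 with centring and 0.08 with loess. That of Yme1l1 turned from 0.01 to -0.08 without replicate 1 (0.10 without replicate 2), and neither gene was called. Several other members with a mean just below 0 also turned with centring, among them Sdhb (-0.15 to 0.05) and Uqcrc2 (-0.12 to 0.08). With loess Mpc2 (1.26) and 7 glycolysis genes passed, Gpi1 (1.21) among them, and with centring Slc25a4 (-1.20) did not. A single array has no spread, so no count without a replicate is given. Each array already pairs both genotypes, and the test of its ratios against 0 uses that pairing. The labels hold a single group of ratios and allow no further pairing. The cause of these differences was not tested.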

Other observations

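A product of the mitochondrial genome and a protein of the mitochondrial ribosome are described here. The genes named were chosen after their values were seen. The probe of mt-Rnr2, the large ribosomal RNA encoded by mitochondrial DNA, had raw signals of 841 and 2031 in IRF8 KO RNA on replicates 1 and 2, against 2054 and 2818 in wt RNA. Signals were lower in IRF8 KO RNA on both arrays, with log2 ratios of -1.31 and -0.86 (mean -1.09 ± 0.32, SD). The difference missed the threshold in limma (adjusted p = 0.0826, and 0.184 with centred arrays) and passed with loess (adjusted p = 0.0315). It was the only probe here for a gene encoded by mitochondrial DNA.

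Among 29 mitochondrial ribosomal proteins on both arrays, 1 passed limma, in the lower direction. A similar share of all 5192 genes, 3.41%, was called lower. Mrpl52, a protein of the large subunit (chromosome 14, 55048504 to 55048574, mouse build 37), had raw signals of 5536 and 9648 in IRF8 KO RNA, against 15053 and 18013 in wt RNA. Its log2 ratios were -1.47 and -1.29 (mean -1.38 ± 0.12, SD; adjusted p = 0.0132), and the call was kept with loess (adjusted p = 0.0058) and lost with centred arrays (mean -1.18, adjusted p = 0.0734). Itgam, which encodes the surface protein by which the cells are named, was 3.68-fold higher in IRF8 KO cells (log2 1.88 ± 0.25; adjusted p = 0.000156 in limma, and 0.0159 with centred arrays).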
